A study of Homo sapiens with 4 samples.

Results

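The cytosolic ribosomal protein genes were taken as the protein-coding genes of GENCODE 44 on chromosomes 1 to 22 and X whose symbol is RPL or RPS with a number and at most 1 of the letters A, X or L, together with RPLP0, RPLP1, RPLP2 and RPSA. This name rule found 81 of 19970 protein-coding genes, of which 49 are named for the large subunit and 32 for the small subunit. The name rule uses no measured value, but it was chosen with earlier results of these data known. The genes lie on 21 of these chromosomes, with 12 of them on chromosome 19.

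MTF-1 was mapped by CUT&RUN, in which an antibody guides a nuclease to release the DNA around a chromatin-bound protein, in MDA-MB-231, a human breast cancer cell line. Control cells had no treatment and were passaged in normal medium. Cadmium cells were adapted to CdSO4, starting at 5 µM and brought up to 10 µM, and were kept in it for many passages, so that they are cells that grew in the metal and not cells given a short dose. Each condition had 2 libraries, which the authors merged before peak calling, and the values analysed here were 1 list of peak positions per condition, with 69299 control and 60130 cadmium peaks.

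Ribosomal proteins are the protein part of the large and small subunits of the cytosolic ribosome, and their genes are among the most highly transcribed in growing cells. Most of their transcripts begin at a cytosine within a run of pyrimidines, the terminal oligopyrimidine tract, through which growth signalling sets their translation, and many of the genes carry small nucleolar RNAs in their introns. Several of the proteins hold a zinc ion. MTF-1 is the zinc-sensing transcription factor that activates metallothionein genes through metal response elements with the core letters TGCACNC or TGCGCNC.

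The annotated first bases of these transcripts are shown because the start-site peaks lie over most of them. RPL10L, also shown, had no peak there. A promoter sequence (RefSeq, GRCh38.p14) was matched for 64 of the 81 genes, and a pyrimidine run of at least 5 bases covered the first base of 46 of them (71.9%), against 9.61% of all 34961 promoters. The median run was 10.5 bases. The RefSeq start used here was the canonical start of GENCODE for 56 of the 64, and of the genes shown it differs for RPL19. Each window below holds 30 bases read 5′ to 3′ on the strand of the gene, with the transcript beginning at base 16 and the run over that base in capitals.
RPL7A, chr9:133348203-133348232, plus strand: ccacaaTTCCCTTTCCTTTCTCTCTCCTCC
RPL39, chrX:119791616-119791645, minus strand: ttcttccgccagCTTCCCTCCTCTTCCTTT
RPLP2, chr11:809952-809981, plus strand: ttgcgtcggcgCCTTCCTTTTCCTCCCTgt
RPS3, chr11:75399503-75399532, plus strand: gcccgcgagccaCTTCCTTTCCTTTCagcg
RPL21, chr13:27251543-27251572, plus strand: cggccccgCCTCTTTCCTTTCggccggaac
RPL19, chr17:39200308-39200337, plus strand: gagcgagCTCTTTCCTTTCgctgctgcggc
RPS10, chr6:34426055-34426084, minus strand: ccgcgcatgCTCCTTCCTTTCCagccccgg
RPLP1, chr15:69452803-69452832, plus strand: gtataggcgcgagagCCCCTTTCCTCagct
RPL10L, chr14:46651767-46651796, minus strand: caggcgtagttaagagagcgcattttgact
RPS27L, chr15:63157463-63157492, minus strand: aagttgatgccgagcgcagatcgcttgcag
The run was longest in RPL7A, at 25 bases. The paralogues RPL10L and RPS27L had none over the first base. The genes without a matched sequence included RPL23, RPL23A, RPL30, RPL37, RPL39L, RPL3L, RPL5, RPL7, RPL8, RPS15A, RPS2 and RPS20.

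MTF-1 peaks lay at the starts of nearly all ribosomal protein genes, with and without cadmium. A peak within 1 kb of at least 1 annotated transcript start, called a start-site peak here, was found for 80 of 81 genes in the control list and for 80 of 81 in the cadmium list (98.8% each, Wilson 95% interval 93.3 to 99.8%). Over all protein-coding genes the same was true of 73.4% in the control list and 71.7% in the cadmium list. The same 80 genes had a peak in both lists (98.8%, against 70.2% of all coding genes). No ribosomal protein gene had a start-site peak in the control list only (3.21% of all coding genes) or in the cadmium list only (1.5%). These intervals cover counting error only, and because the libraries were merged no spread between replicates could be put beside any value.

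RPL10L was the single gene with a peak in neither list, a state shared with 25.1% of all coding genes. RPL10L is an intronless copy of RPL10 known for its expression in the testis. It has 1 annotated start, on the minus strand at chr14:46651010-46651781, and no other coding start lies within 50 kb of it. The nearest control peak was 76582 bp from that start and the nearest cadmium peak 575420 bp from it.

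The presence of a peak held at the main start and not only at alternative ones. The first base of the canonical transcript, the 1 transcript per gene that the annotation marks as representative, was inside a peak for 79 of 81 genes in each list, against 66.5% and 64.5% of all coding genes in the control and cadmium lists. The exceptions were RPL10L and RPL3L. RPL3L, a striated muscle paralogue of RPL3, was counted only through an upstream alternative start that falls inside the peak of its neighbour RPS2. That peak spanned chr16:1957601-1965799 in the control list and chr16:1957201-1967199 in the cadmium list. The canonical start of RPL3L was 2912 bp and 2512 bp from the nearest control and cadmium peak, so neither list placed MTF-1 at it.

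The profile of peak coverage around the canonical start shows where this signal lay. At the start itself a peak covered 97.5% of the ribosomal protein genes in each list. At 1 kb upstream of it coverage was 54.3% in the control list and 43.2% in the cadmium list, and at 1 kb downstream it was 69.1% and 54.3%. Among all coding genes the values were 39.7% and 32.6% upstream and 45.7% and 38.9% downstream.

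**Figure D1:**
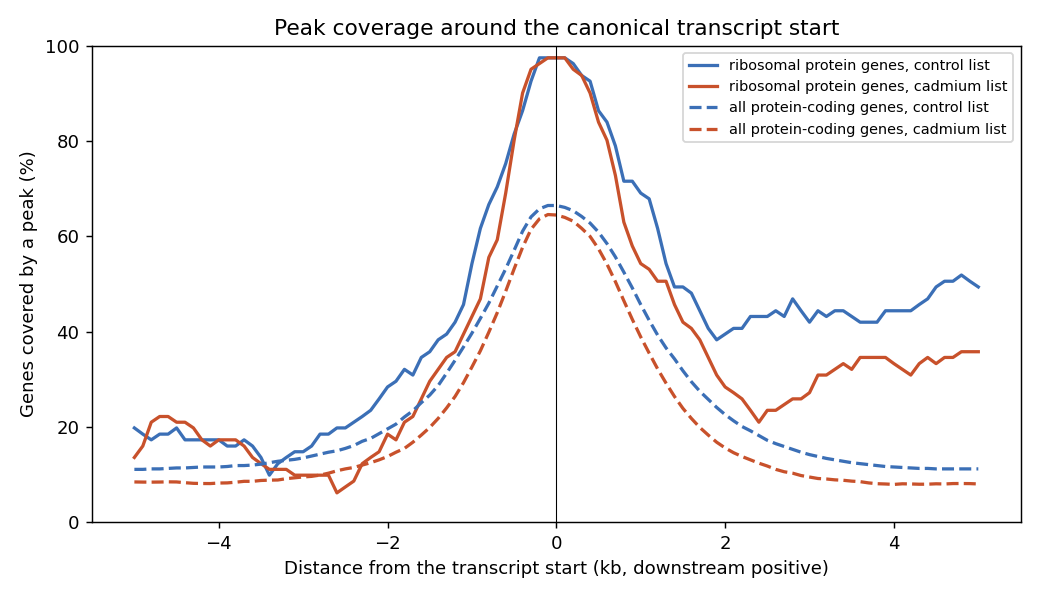
Share of genes covered by an MTF-1 peak (percent) by distance from the canonical transcript start in bp, downstream positive, for the 81 ribosomal protein genes and for all 19970 protein-coding genes in the control and cadmium lists. The ribosomal protein genes reach 97.5% at the start in both lists, and at 5 kb downstream 49.4% (control) and 35.8% (cadmium) are still covered, against 11.2% and 8.04% of all coding genes.

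Farther downstream the coverage did not decline steadily. It was 39.5% in the control list and 28.4% in the cadmium list at 2 kb past the start of the ribosomal protein genes, and 49.4% and 35.8% at 5 kb. Over all coding genes it was 22.6% and 15.6% at 2 kb and 11.2% and 8.04% at 5 kb. The genes are short, with a median canonical span of 4522 bp against 22930.5 bp over all coding genes, so a distance of 5 kb often lies at or past the end of the transcript.

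Peaks at the far end of these genes were therefore counted too, a choice made after the profile had been seen. A peak lay within 1 kb of the canonical transcript end for 48 of 81 genes (59.3%) in the control list and for 44 (54.3%) in the cadmium list, against 21.8% and 18.2% of all coding genes. Among the 2825 coding genes that span at most 10 kb and have their start inside a peak in both lists, a set closer to the ribosomal protein genes in length and start coverage, the shares were 51.3% and 45.5%. The end itself was inside a peak for 38 genes (46.9%) in the control list and 33 (40.7%) in the cadmium list, against 12.9% and 9.85% of all coding genes and 35.6% and 29% of the short genes.

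Part of the end coverage came from peaks that ran over the whole gene and part from separate peaks. A peak at the end that did not cover the start was found for 27 genes (33.3%) in the control list and 28 (34.6%) in the cadmium list, against 26.9% and 25.1% of the short genes. Such a peak can lie over the start of a neighbouring gene, as in both lists at RPL4 (SNAPC5) and RPL18 (FAM83E). How often this was so was not counted, and the short genes were not matched for the number of genes nearby. The whole canonical transcript was covered for 19 of the 81 ribosomal protein genes in the control list, among them RPL7A, RPL10A, RPLP2, RPS15 and RPS28, and for 13 in the cadmium list, against 2.92% and 2.17% of all coding genes. A short transcript is more easily covered whole, and the median span was 4522 bp against 22930.5 bp over all coding genes. This share was not computed for the short genes, so the comparison is not adjusted for length. In the 5 kb past the end, a median of 2459 bases in the control list and 999 bases in the cadmium list lay in peaks, against 975 and 399 bases for the short genes.

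An end peak was present in both lists for 43 genes (15.6% of all coding genes and 41.8% of the short genes), in the control list only for 5 (6.14% and 9.52%), in the cadmium list only for 1 (2.59% and 3.68%) and in neither for 32. The 5 genes of the control list were RPL22, RPL23, RPL32, RPS12 and RPS25. At RPL23 and RPS25 the control peak at the end was the one that also covered the start, 10199 bp and 5199 bp wide. RPSA, the laminin-binding protein of the small subunit, had a cadmium peak of 2999 bp at its end and no control peak there.

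**Figure D2:**
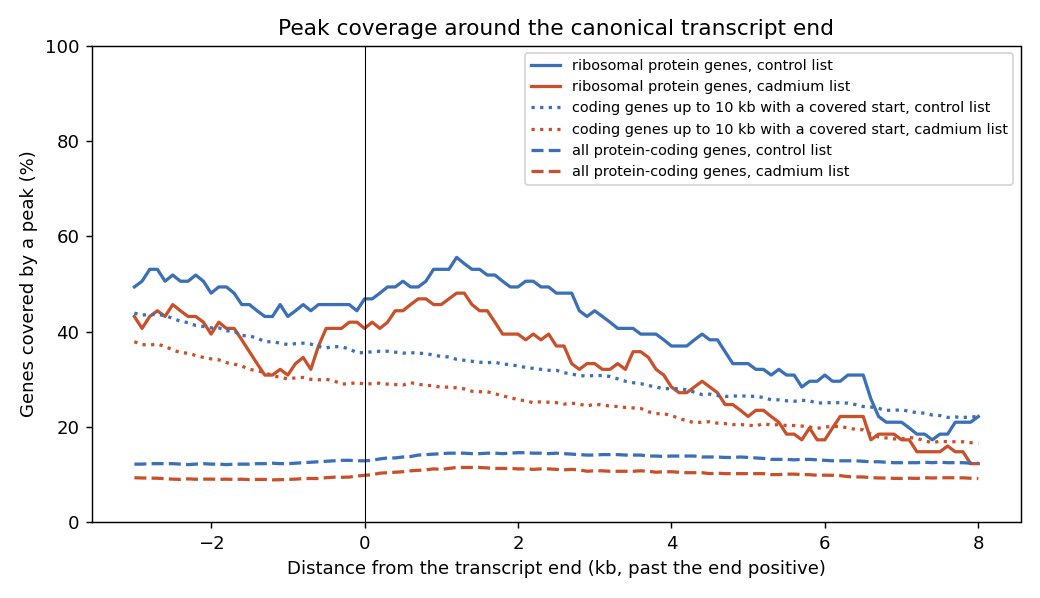
Share of genes covered by an MTF-1 peak (percent) by distance from the canonical transcript end in bp, downstream positive, for the ribosomal protein genes and for the 2825 coding genes that span at most 10 kb and have their start inside a peak in both lists. At 1 kb past the end 53.1% of the ribosomal protein genes are covered in the control list and 45.7% in the cadmium list, against 34.8% and 28.3% of the short genes.

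The peaks themselves were shared between the conditions almost without exception. The 81 genes had 92 distinct start-site peaks in the control list, of which 91 (98.9%) shared at least 1 base with a cadmium peak, against 89.4% of the 17616 start-site peaks of all coding genes. In the cadmium list they had 91, and 91 (100%) shared a base with a control peak, against 94.9% of 16458.

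The 1 control peak with no cadmium counterpart was at RPL37, a zinc-finger protein of the large subunit. It lay at chr5:40830801-40833199, was 2399 bp wide and was counted through an alternative start inside it. The nearest edge of this peak was 2023 bp from the canonical start. At the canonical start RPL37 had a peak of 1799 bp in the control list and of 1399 bp in the cadmium list. The gene thus kept its main start-site peak in both lists.

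The widths of the peaks differed more than their presence. For each gene the widest of its start-site peaks was taken, with the caller's 200 bp bins setting the resolution. The median width over the 80 genes was 3199 bp in the control list (quartiles 1749 and 8199 bp, range 599 to 47199 bp) and 2499 bp in the cadmium list (quartiles 1599 and 3899 bp, range 599 to 15399 bp). Over all coding genes with a peak it was 2799 bp (quartiles 1799 and 4199 bp) and 2199 bp (quartiles 1599 and 3399 bp). Both sets were thus wider in the control list at the median, and the upper quartile of the ribosomal protein genes lay farther above that of all coding genes in the control list than in the cadmium list.

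Gene by gene, the peak was wider in the control list for 55 of 80 genes (68.8%), against 62.2% of all coding genes with a peak in both lists. It was wider in the cadmium list for 22 genes, against 25.5% of all coding genes, and equal for 3, among them RPL37A and RPS27A. The median log2 ratio of the widths, cadmium over control, was -0.42 against -0.22 over all coding genes. The cadmium peak had at most 0.5 times the control width for 20 genes (14.7% of all coding genes) and at least 2 times the control width for 4 genes (2.89%). With 1 merged list per condition, no gene's difference could be set against replicate error.

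**Figure D3:**
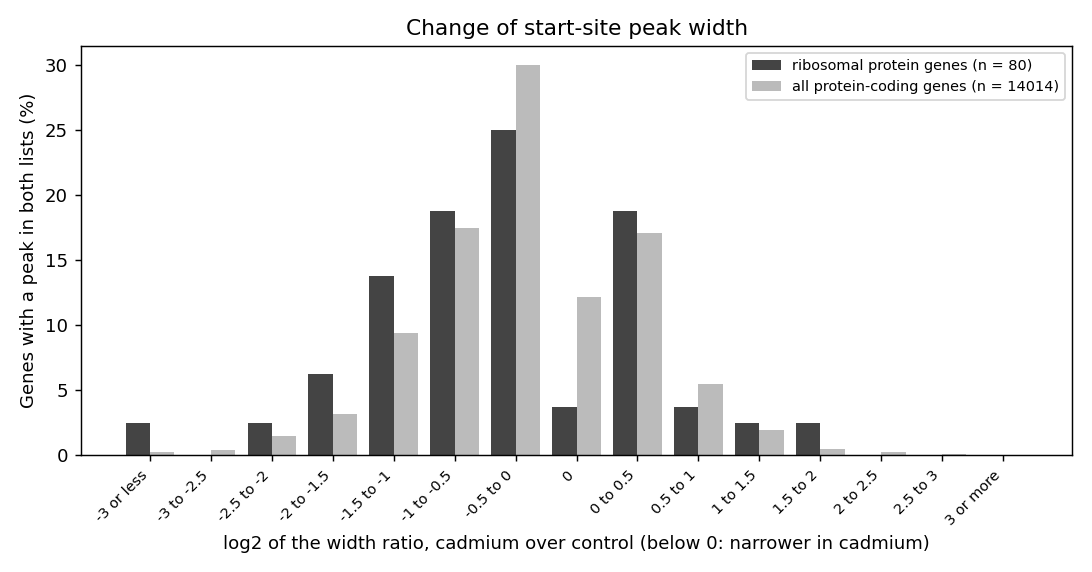
Share of genes (percent) by log2 ratio of the widest start-site peak, cadmium over control, for the 80 ribosomal protein genes and the 14014 coding genes with a peak in both lists. Ratios below 0 are narrower in cadmium, and the bin from -1.5 to -1 holds 13.8% of the ribosomal protein genes and 9.42% of all coding genes.

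Wide peaks of the control list were found at genes of both subunits. RPLP2, an acidic protein of the stalk to which elongation factors bind, had a control peak of 47199 bp and a cadmium peak of 5799 bp. RPS15, of the small-subunit head, had 24399 bp and 13599 bp. RPL10A and RPL23A differed little between the lists, with 14999 and 14799 bp for RPL10A and 14799 and 13599 bp for RPL23A, so a very wide control peak did not always go with a narrow cadmium peak.

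The narrowest control peaks were those of RPL21 (599 bp), RPL17 (799 bp), RPL36A and RPL37A (999 bp each) and RPL14 (1199 bp). In the cadmium list their widths were 1799 bp, 599 bp, 599 bp, 999 bp and 1599 bp. At RPL14 the control and cadmium widths belong to peaks at different places. Over its canonical start the control peak was 799 bp wide and the cadmium peak 1599 bp. The order of widths was similar in both lists, with a Spearman rho of 0.76 over 80 genes, given as a description because neighbouring genes can share a peak. Between the control width and the log2 ratio rho was -0.47, and since the control width enters both measures the sign of that value is partly built in.

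**Figure D4:**
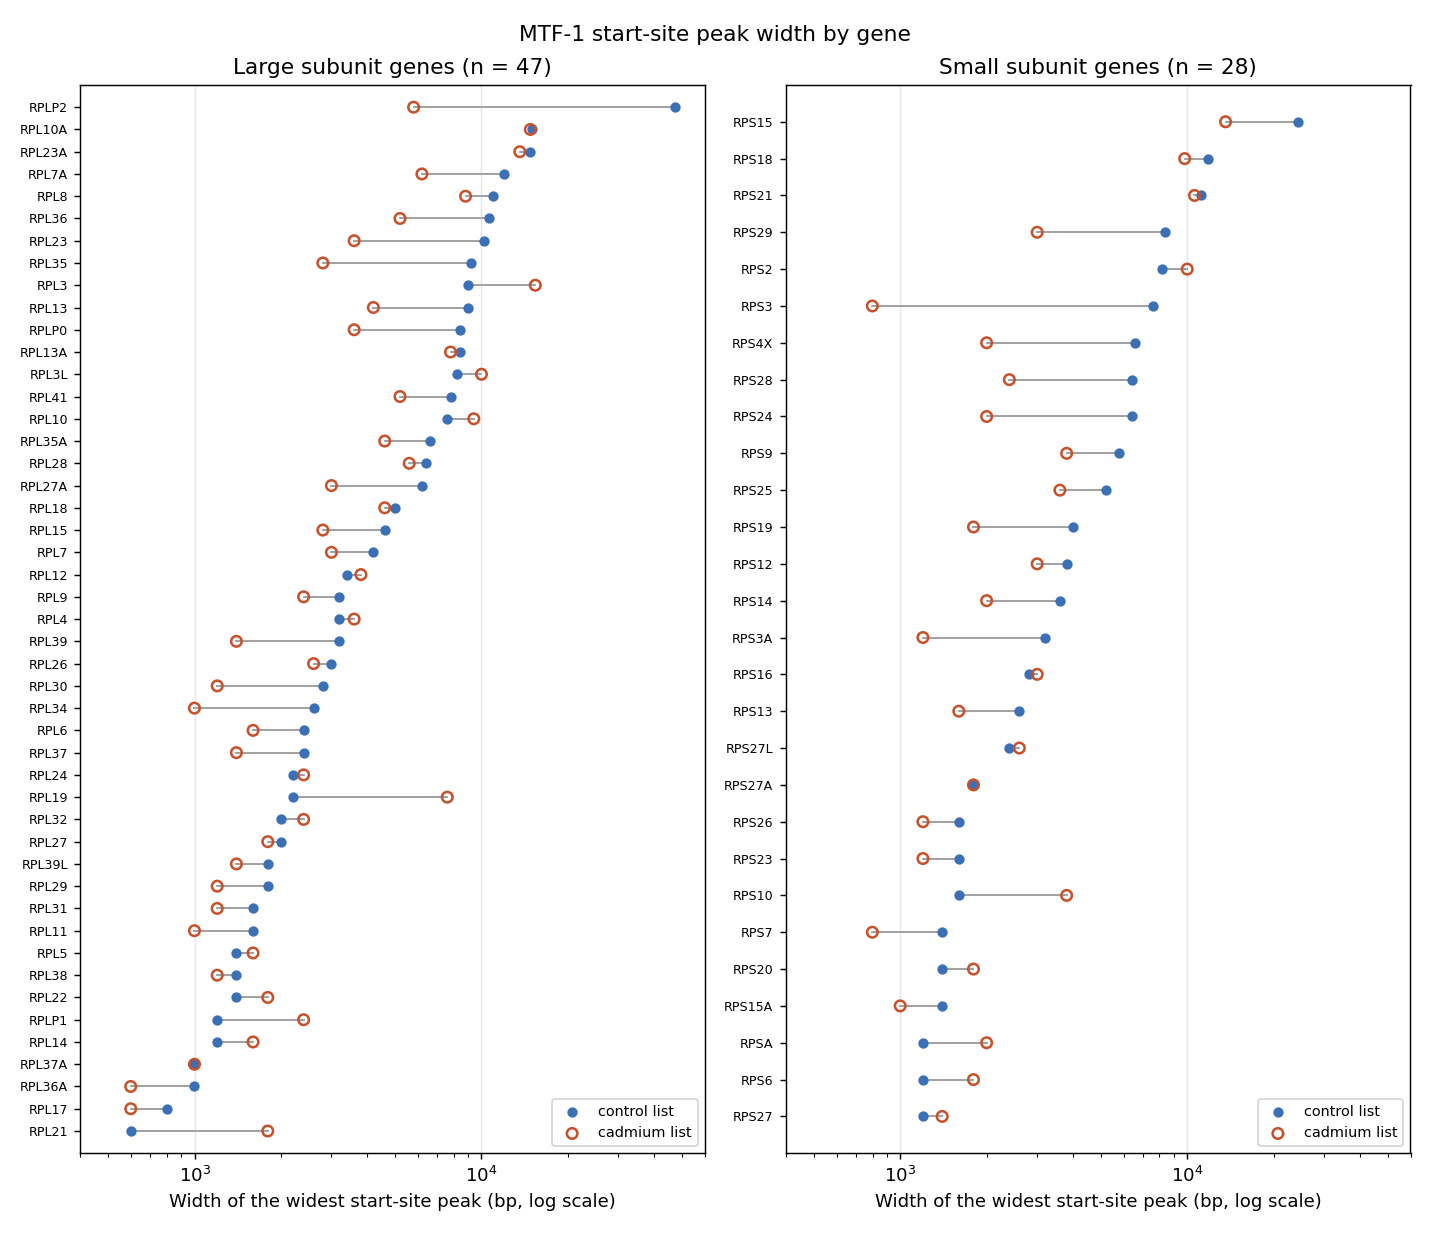
Width of the widest start-site peak (bp, log scale) for 75 of the 80 ribosomal protein genes with a peak, in the control list (filled points) and the cadmium list (open points), with large-subunit and small-subunit genes in separate panels. Control widths run from 599 bp (RPL21) to 47199 bp (RPLP2), and the control point lies to the right for 52 of the 75 genes plotted.

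The 5 smallest ratios, cadmium over control, included those of RPS3, RPLP2 and RPS4X. They were of different kinds when the bases of the control peak that any cadmium peak covered were counted. RPS3, a small-subunit protein at the messenger RNA entry site that also acts in DNA repair, had a control peak of 7599 bp and a cadmium peak of 799 bp (log2 ratio -3.25), and cadmium peaks covered 10.5% of the control peak. Its control peak reached 2117 bp upstream and 5481 bp downstream of the canonical start, and the cadmium peak 317 bp and 481 bp. No other coding start lay in either peak, so the difference in width lay on both sides of the RPS3 start itself.

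At RPLP2 (log2 ratio -3.02) the control peak, chr11:801801-848999, also covered the starts of PIDD1, PNPLA2, CRACR2B, CD151, POLR2L and TSPAN4. In the cadmium list 6 separate peaks lay within it, which together covered 86% of its bases. The cadmium peak at the RPLP2 start reached 1566 bp upstream and 4232 bp downstream and still covered the whole transcript. The large ratio at RPLP2 thus came with a domain in pieces, and that at RPS3 with bases that were in no cadmium peak.

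RPS4X, the X-linked gene of a small-subunit protein, had 6599 bp and 1999 bp at an alternative start and 1599 bp and 599 bp at the canonical start (log2 ratio -1.72 for the wider peaks), and 2 cadmium peaks covered 60.6% of the wide control peak.

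The 5 largest ratios belonged to RPL19, RPL21, RPS10, RPLP1 and RPL3. RPL19 had a control peak of 2199 bp and a cadmium peak of 7599 bp (log2 ratio 1.79). Its downstream edge was the same in both lists, 1716 bp from the start, and the upstream reach was 482 bp in the control list and 5882 bp in the cadmium list, where the peak also covered the start of the calcium channel subunit gene CACNB1. In the control list a separate peak of 2599 bp lay within that stretch, so the cadmium peak joined a pair of control peaks.

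RPL21 had 599 bp in the control list and 1799 bp in the cadmium list (log2 ratio 1.59), with the same upstream edge and a downstream reach of 241 bp and 1441 bp. RPS10, a gene affected in Diamond-Blackfan anaemia, had 1599 bp and 3799 bp (log2 ratio 1.25), and most of the difference lay upstream, where the reach was 330 bp and 2130 bp. It shares its start with the read-through gene RPS10-NUDT3. RPLP1 had 1199 bp and 2399 bp (log2 ratio 1.00). At RPL3 the cadmium peak of 15399 bp joined control peaks of 4599 bp and 8999 bp (log2 ratio 0.78 against the wider of them). Among these 5 genes, the added width at RPL19 and RPL3 thus included bases that already lay in a second control peak.

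**Figure D5:**
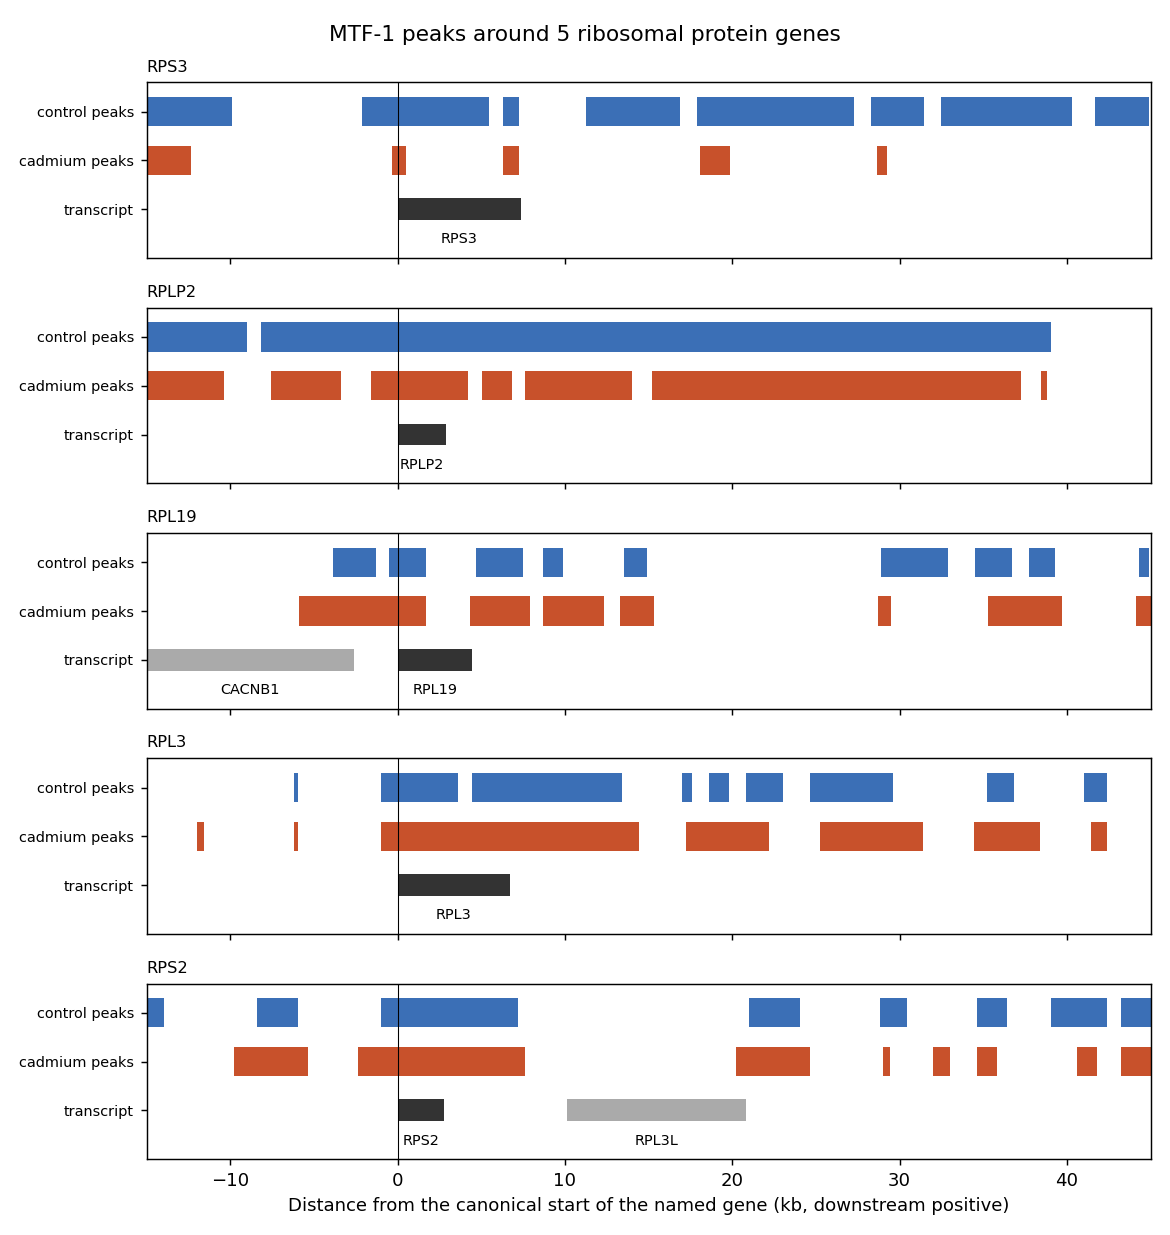
MTF-1 peaks of the control and cadmium lists and the canonical transcripts around 5 ribosomal protein genes, by distance from the canonical start of the named gene in kb, downstream positive. At RPS3 the control peak runs from 2117 bp upstream to 5481 bp downstream and the cadmium peak from 317 to 481 bp, whereas at RPLP2 a control domain of 47199 bp is held as 6 separate peaks in the cadmium list.

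Broken domains were more frequent than among all coding genes. The widest control peak overlapped at least 2 cadmium peaks for 16 of 80 genes (20%), against 8.68% of all coding genes. Besides RPLP2 and RPS4X the genes included RPS15 and RPL13 with 3 cadmium peaks each, and RPL7A, RPL35, RPL36, RPLP0 and RPS28 with 2 each. The reverse, a widest cadmium peak over at least 2 control peaks, was found for 5 genes (6.25%), against 4.64%.

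The share of bases kept was close to that of other genes. The median share of the widest control peak that cadmium peaks covered was 77.8% for the ribosomal protein genes and 80% for all coding genes, and it was under 50% for 14 genes (17.5%, against 15.2%). The lowest were RPL37 at 0%, RPS3 at 10.5%, RPS24 at 31.2%, RPL14 at 33.3% and RPL23 at 37.2%. The widest cadmium peak lay wholly within control peaks for 47 genes (58.8%, against 58.4%), and it was under 50% covered by them for 4 genes (5%, against 3.5%), the lowest being RPL21 at 33.3%.

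Most of the genes had a single start-site peak. There were 2 or more for 14 genes in the control list (19.5% of all coding genes) and for 11 in the cadmium list (17.3%). Every base within 1 kb of the canonical start was covered for 36 genes in the control list (29% of all coding genes) and 26 in the cadmium list (21.5%), and the median number of covered bases was 1933 and 1661 of the window, against 1476.5 and 1383 over all coding genes.

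The edges of the peak over the canonical start were compared for the 79 genes that had one in both lists. Upstream of the start the median reach was 1087 bp in the control list and 874 bp in the cadmium list, and downstream it was 1521 bp and 1330 bp. Over 12641 coding genes the values were 1188 and 982 bp upstream and 1396 and 1165 bp downstream. The upstream edge was closer to the start in the cadmium list for 36 genes, the same for 27 and farther for 16, and the downstream edge was closer for 44, the same for 13 and farther for 22. The shares with a closer edge, 45.6% upstream and 55.7% downstream, were near the 47.2% and 50.3% of all coding genes. The peak reached farther downstream than upstream for 55 genes (69.6%) in the control list and 54 (68.4%) in the cadmium list, against 58.7% and 58.8% of all coding genes.

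Width also went with the number of genes nearby. For the 57 genes with at most 4 other coding starts within 50 kb, the median width was 2799 bp in the control list and 1999 bp in the cadmium list, and for the 21 genes with 5 to 9 it was 6399 bp and 3799 bp. Spearman rho between the number of nearby starts and the width was 0.40 (control) and 0.48 (cadmium) over 80 genes. The start of another coding gene lay in the widest peak of 29 of the 80 genes in the control list (24.1% of all coding genes) and 25 in the cadmium list (24.4%), so such a width cannot be assigned to the ribosomal protein gene alone.

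The 12 genes on chromosome 19 had wide control peaks. Their median width was 7399 bp in the control list and 3799 bp in the cadmium list, against 2799 bp and 2399 bp for the 68 genes with a peak on other chromosomes. All coding genes on chromosome 19 had 3599 bp and 2599 bp. The control peak was the wider for 11 of the 12 ribosomal protein genes, all but RPS16 (2799 and 2999 bp), and for 73.1% of all coding genes on that chromosome. The cadmium peak had at most 0.5 times the control width at 6 of them, among them RPL36, RPS19 and RPS28, and at 23.9% of all coding genes on chromosome 19.

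A peak could also serve a pair of the genes. The peak that RPS2 and RPL3L shared was 8199 bp wide in the control list and 9999 bp in the cadmium list.

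By subunit, the small-subunit genes had a median width of 3399 bp in the control list and 2199 bp in the cadmium list, and the large-subunit genes 3199 bp and 2799 bp. The control peak was the wider for 21 of 32 small-subunit genes and 34 of 48 large-subunit genes. In the stalk, RPLP0, its anchor on the large subunit, had 8399 bp and 3599 bp and RPLP2 47199 bp and 5799 bp, while RPLP1 had 1199 bp and 2399 bp. The stalk genes thus did not share a direction. RPSA had 1199 bp and 1999 bp.

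The 8 genes of zinc-binding ribosomal proteins had narrow peaks. These were RPL36A, RPL37, RPL37A, RPS26, RPS27, RPS27A, RPS27L and RPS29. Their median width was 1699 bp in the control list and 1399 bp in the cadmium list. The control peak was wider at 4 of them, the cadmium peak at 2, and the widths were equal at RPL37A (999 bp) and RPS27A (1799 bp), which encodes ubiquitin fused to the ribosomal protein. RPS29 was the widest, with 8399 and 2999 bp at an alternative start that lies in a peak over LRR1 and 2999 and 2199 bp at its canonical start. The others ranged from 999 to 2399 bp in the control list.

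Diamond-Blackfan anaemia is a failure of red cell production caused by loss of 1 copy of a ribosomal protein gene. The 9 genes listed for it here had a median width of 1599 bp in the control list and 1799 bp in the cadmium list. They are a chosen part of the genes of the disease, so these values do not describe all of its genes. The control peak was wider at 6 of them and the cadmium peak at 3. RPS24 had 6399 and 1999 bp, RPS19 3999 and 1799 bp, and RPL35A 6599 and 4599 bp. RPL5 had 1399 and 1599 bp and RPL11, its partner in binding the p53 regulator MDM2, 1599 and 999 bp. The order of the medians was thus opposite to the count of genes, and neither could be set against replicate error.

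Genes that host small nucleolar RNAs were described next. The 28 hosts carry 60 annotated small nucleolar RNAs and had a median width of 3599 bp in the control list and 2899 bp in the cadmium list, against 2899 bp and 2399 bp for the other 52 genes with a peak. RPL4, which carries 5, had 3199 and 3599 bp, and RPL23A, which carries 4, had 14799 and 13599 bp. RPL17, which carries 3, had 799 and 599 bp. Hosts were thus found at both ends of the range.

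The paralogues were set beside the genes they resemble. RPL39L had 1799 bp in the control list and 1399 bp in the cadmium list, and RPL39 had 3199 and 1399 bp. RPS27L, a p53 target, had 2399 and 2599 bp, and RPS27 had 1199 and 1399 bp. RPL10, which had 7599 and 9399 bp, stood against RPL10L with no peak. Without the 4 paralogues, all 77 genes had a start-site peak in both lists.

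Presence at the start was also common in other gene groups of the cell's basic machinery. A start-site peak in both lists was found for 78 of 78 mitochondrial ribosomal protein genes, 48 of 50 proteasome subunit genes (96%) and 91 of 98 nuclear genes of the respiratory chain (92.9%). Presence in both lists was thus high in each of these groups too. Their median widths were 2199 and 1799 bp, 2599 and 2199 bp, and 2299 and 1999 bp in the control and cadmium lists, below the 3199 and 2499 bp of the cytosolic genes. A peak within 1 kb of the canonical end was found for 30.8% of the mitochondrial ribosomal, 32% of the proteasome and 19.4% of the respiratory chain genes in the control list, and these genes are also longer.

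Related genes outside the name rule were counted too. The 7 further ribosomal protein genes (among them FAU, RACK1, RPL7L1, RPL22L1, RPL26L1 and RPL36AL) had a peak in both lists, and the control peak was the wider at 6 of them, such as RACK1 with 10399 and 7999 bp. The exception was RPL26L1, with 2599 and 4399 bp. Of 14 translation genes, all had a peak in both lists, with the control peak wider at 10 and equal at 4, among them the elongation factor EEF1A1 with 21399 and 14999 bp and EEF1D with 13799 bp in both. Of 16 ribosome biogenesis genes, all had a peak in both lists, with 7 wider in control, 3 equal and 6 wider in cadmium.

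Processed pseudogenes, the promoterless copies that ribosomal protein transcripts have left across the genome, mostly had no peak. Of 1509 named for a ribosomal protein gene, 128 (8.48%) had a start-site peak in the control list, 79 (5.24%) in the cadmium list and 63 (4.17%) in both, against 6.82%, 4.98% and 4.05% of all 10007 processed pseudogenes. RPL21 alone has 128 such copies, RPL23A 83 and RPL7A 79. How reads that match several copies were placed is not given in the sources used here, so peak edges within exons of these genes are less certain than those upstream of the start.

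The metal response element core was found in the promoters of some of the genes. Searched as TGCACNC or TGCGCNC on both strands in the 300 bases from 250 before to 50 after the start, it was present in 24 of 64 promoters (37.5%), against 29.6% of all promoters and 33.8% of those of coding genes. The 24 include RPL6, RPL10, RPL13, RPL32, RPS19 and RPS29, whose RefSeq start was not the canonical start. The distance between the starts ran from 29 bp at RPL13 to 12330 bp at RPS29, so these cores are not all at the main promoter. The string TGCACACG was in none of the 64, in 0.678% of all promoters and in 0.691% of those of coding genes. The stretches below show cores at genes whose values are described above, with the core in capitals and read on the strand of the gene, so that a core on the other strand appears as its reverse complement.
RPS12, chr6:132814495-132814541: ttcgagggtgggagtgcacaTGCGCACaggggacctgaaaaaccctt
RPS3, chr11:75399432-75399478: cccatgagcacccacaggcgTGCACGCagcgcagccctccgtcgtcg
RPLP1, chr15:69452695-69452741: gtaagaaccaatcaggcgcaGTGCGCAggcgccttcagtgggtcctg
RPL39, chrX:119791714-119791760: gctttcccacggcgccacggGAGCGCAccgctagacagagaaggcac
RPS27L, chr15:63157573-63157619: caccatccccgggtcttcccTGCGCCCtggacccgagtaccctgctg
RPL10L, chr14:46651782-46651822: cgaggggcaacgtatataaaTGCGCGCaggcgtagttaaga
The genes on the minus strand here are RPL39, RPS27L and RPL10L. A core did not go with a peak in each case, since RPL10L holds these letters and had no peak. Among the other genes shown, the cadmium peak was narrower than the control peak at RPS3, RPS12 and RPL39 and wider at RPLP1 and RPS27L. These genes are examples, and the directions at the rest of the 24 were not tallied.

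Other promoter letters are given beside their shares in all promoters and in those of coding genes. CCGGAAG, the core of ETS factor sites, was in 20 of 64 (31.2%, against 10.3% and 12.8%), and AAGATGGCG, a YY1 site, in 5 (7.81%, against 1.76% and 2.42%). TGACTCA, the AP-1 site, was found only in RPL24 (1.56%, against 4.92% and 4.01%), and no forkhead string, taken as GTAAACA with G or A as its first letter and C or T as its sixth, was found in the 64 promoters (13.6% and 10.6%). TATAAA was in 6 (9.38%, against 11.5% and 9.46%) and GGGCGG in 38 (59.4%, against 45% and 56.3%), both close to the promoters of coding genes. A further string was searched that reads the same on both strands and is not spelled out here. It was in 4 of 64 promoters (6.25%, against 0.426% and 0.569%), those of RPL17, RPL26, RPS6 and RPS19. A match of letters is a description and no measure of binding.

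The same letters were counted over the whole peaks, where the share of peaks with a match also depends on their width. For the metal response element core, the 92 control start-site peaks held 1.27 matches per kb, against 1.26 in the start-site peaks of all coding genes, and the 91 cadmium peaks held 1.11 against 1.31. TGCACACG, absent from the 64 promoters, was in 14 of the 92 control peaks (15.2%, against 6.36%) and 10 of the 91 cadmium peaks (11%, against 5.62%), at 0.0397 per kb against 0.0242 and 0.0314 against 0.0258. Forkhead letters, also absent from the promoters, stood at 0.548 per kb against 0.593 in the control peaks and 0.414 against 0.499 in the cadmium peaks. AP-1 letters stood at 0.125 per kb in the control peaks of the ribosomal protein genes against 0.202 in those of all coding genes, and at 0.122 against 0.216 in the cadmium peaks. ETS letters stood at 0.22 against 0.15 and at 0.279 against 0.179. The string not spelled out above stood at 0.0146 per kb against 0.00261 in the control peaks. In the cadmium peaks it stood at 0.022 against 0.00341, from 7 matches in the ribosomal protein gene peaks of each list.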

How the data were processed

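MTF-1 CUT&RUN was analysed for 2 control and 2 cadmium libraries of MDA-MB-231. The authors removed adaptors with bbduk, used Bowtie2 for alignment to hg38, joined both replicates by samtools 1.8 and ran Epic2 on the joined reads under its default settings, with no control library named. The submitters' processing notes name SICER 0.0.50. The deposited lists hold a chromosome, start and end in base pairs and a last column with the same score throughout, so depth is unknown and no value has an error. A peak of 1 bin is listed as 199 bp wide.

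Starts, ends and gene types were read from GENCODE 44 and distances were counted from the nearest peak edge. A peak was shared if at least 1 base overlapped. Promoter sequences came from RefSeq (GRCh38.p14), and all peaks on chromosomes 1 to 22 and X lay within the reference of that build. Counts were set beside those over all protein-coding genes, and no test was made. The steps were tested on simulated data. Python 3.11.15, numpy 2.4.6, scipy 1.17.1 and matplotlib 3.10.9 were used.

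The members and lists were chosen with earlier results of these data known. Named genes were those in 1 list or neither, the 5 largest and 5 smallest ratios, the 5 widest and 5 narrowest control peaks, genes that share a peak, paralogues, stalk, zinc-binding and Diamond-Blackfan genes. Genes named in the accounts of transcript ends, broken domains, chromosome 19, small nucleolar RNAs and motifs were examples chosen after their values were seen. Alternatives were other windows, canonical starts only, distances from the peak centre, minimum widths, a stricter overlap and leaving out the paralogues. Values of some single genes are not reported here, and those genes are counted in the totals.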

Additional observations from a re-analysis of the deposited data

How the results depend on the processing

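Of 141 values recomputed under alternatives for 19 results, 121 were classed as the same and 20 as moved. The first class was broad. With the peak centre it held a change from 80 to 66 genes in the control list and from 55 to 39 genes wider in control. The median log2 ratio of widths stayed between -0.42 and -0.28. The order of the lists in presence did not hold: 80 and 80 genes (control and cadmium) became 66 and 72 with the peak centre and 76 and 72 with peaks of at least 1000 bp. Control peaks with no cadmium counterpart numbered 1 and became 3 with a window of 3 kb, 0 at canonical starts only, 2 with peaks of at least 400 bp, 8 with at least 1000 bp and 15 when 50% of the peak had to be covered. Cadmium peaks with no control counterpart numbered 0 and became 2 with 3 kb, 2 with at least 1000 bp and 4 with 50% coverage. Genes in the control list only became 1 with distances from the peak centre and 5 with at least 1000 bp, and those in the cadmium list only 7 and 1. Genes in neither list became 8 with the peak centre and 4 with at least 1000 bp. They became 2 at canonical starts only, where RPL3L joins RPL10L, and 0 without the 4 paralogues, which include RPL10L. With 3 kb, a larger window, the median bases covered at the start were 3094 (control) and 2399 (cadmium). Of the end counts, 48 and 44, peaks that did not cover the start gave 27 and 28, the opposite order, in an alternative chosen after seeing the data. The cause of the other shifts was not tested, except that a stricter minimum leaves fewer peaks. No paired analysis was possible because the replicates were merged before peak calling and the lists carry no library, and for the same reason no replicate could be left out. Width depends on depth, which is unknown for both lists, so a lower cadmium depth and a narrower occupied region cannot be told apart.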
